A study of Homo sapiens with 4 samples.

Results

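Of 9 genes linked to estrogen receptor action, 5 could be tested. Of these, 4 differed between H1299 cells exposed to methylparaben and cells given ethanol, in a comparison in which 36.9% of all genes tested differed. SIAH2 was 1.90-fold higher with methylparaben, whereas MYBL1, NCOA2 and NCOA3 were 3.37-fold, 1.87-fold and 1.71-fold lower. The NCOA3 call held in only 9 of 17 alternative analyses, whereas those of SIAH2, MYBL1 and NCOA2 held in all 17. NCOR1 did not pass the test, NCOA1 had too few reads to be tested, and no read was counted for GREB1, TFF1 or NRIP1 in any library. The 9 genes were taken by name from the 58735 genes in the deposited table, because methylparaben has been reported as a weak estrogen. They comprise MYBL1, SIAH2, GREB1 and TFF1, known as estrogen-responsive genes, the receptor coregulators NCOA1, NCOA2, NCOA3 and NCOR1, and NRIP1, which is both.

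The RNA came from H1299, an established line of human lung carcinoma of the non-small-cell type. In the treated group, with 2 libraries, 0.5 mM methylparaben, an ester of hydroxybenzoic acid that serves as a preservative, was given for 48 h. The control group, also with 2 libraries, received ethanol. All libraries came from poly(A)-selected RNA of the same unmodified line, and the labels name no other treatment. The labels call the experiments duplicated but do not say whether separate cultures were used, so the p-values reflect only how these 4 samples varied, which may be technical.

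Estrogen receptors are transcription factors that bind DNA after taking up a ligand, either directly at estrogen response elements or through partners such as AP-1 and SP1. A receptor with an agonist recruits coactivators of the steroid receptor coactivator family, here NCOA1, NCOA2 and NCOA3, which bring in histone acetyltransferases. Corepressors such as NCOR1 join unliganded or antagonist-bound receptors to histone deacetylases. The same coregulators serve many other nuclear receptors, and TFF1 and GREB1 are best known as estrogen-induced genes in breast cancer cells.

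The libraries held 3760982 and 2068486 counts with methylparaben and 2368658 and 2182058 counts with ethanol. The deposited reads appear to lie only on bases annotated to no more than a single transcript (single-transcript bases), without regard to strand. This rule is not stated by the authors. It was inferred because all 70749 transcripts without such a base had no read, and it is assumed below. A gene whose transcripts overlap each other is then read over part of its length. Of the markers of this line VIM and AXL were read in all libraries and CAV1 in none. All 5 lung epithelial and all 5 blood markers were at 0, as were 5 of 6 breast luminal markers. The exception, FOXA1, had 8.16 and 8.90 CPM with methylparaben and 5.53 and 7.79 CPM with ethanol. CPM are read counts relative to the library size after TMM scaling, the trimmed mean of M values. In such bulk RNA, fewer cells expressing a gene and less RNA per cell cannot be told apart.

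Among the 5 genes with enough reads, 4 had an adjusted p under 0.05 by edgeR's quasi-likelihood test with Benjamini-Hochberg adjustment over 8055 genes. Across all genes tested, 36.9% were called, 18.5% higher and 18.4% lower with methylparaben, so calls were common in this comparison. The median log2 fold change was -0.78 over the 5 genes and 0.03 over all genes tested. For 4 of the 5 genes the methylparaben libraries did not overlap the ethanol libraries, as was the case for 70.5% of all genes tested. A change at least as large as that of MYBL1, in either direction, was seen in 16.5% of all genes, against 41.4% for SIAH2, 42.4% for NCOA2, 47.8% for NCOA3 and 78.1% for NCOR1.

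**Figure D1:**
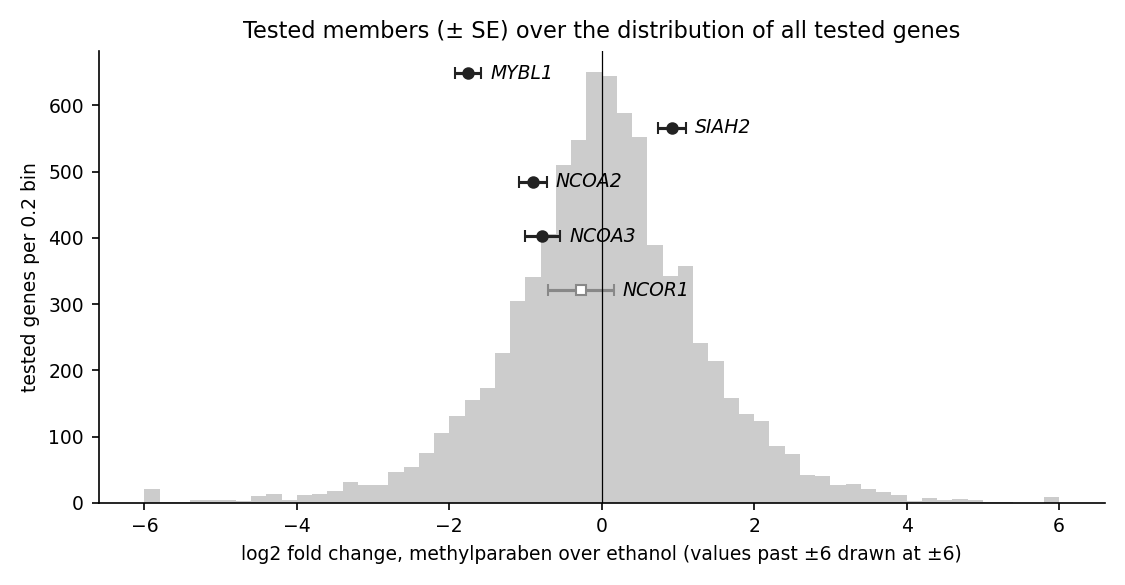
Log2 fold change of methylparaben over ethanol (horizontal axis) for the 5 tested genes, drawn as points with SE over a histogram of all 8055 genes tested (vertical axis, genes per bin). Filled circles had an adjusted p under 0.05 and the open square did not. MYBL1 at -1.75 lies farthest from 0 of the 5 genes and NCOR1 at -0.28 nearest.

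MYBL1 encodes A-MYB, a MYB-family transcription factor, and is counted among estrogen-responsive genes from work in breast cancer cells. It lies on chromosome 8 (66562175 to 66614247, minus strand, GRCh38). MYBL1 had 160 and 153 CPM in the methylparaben libraries, against 489 and 568 CPM in the ethanol libraries. Both methylparaben libraries were below both ethanol libraries, by more than the spread within either group. The mean was 157 ± 4.70 CPM with methylparaben and 529 ± 55.4 CPM with ethanol (SD, n = 2 each). The log2 fold change was -1.75 ± 0.17 (SE), with an adjusted p of 0.000133 from edgeR.

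Nearly all of these reads, 97.6%, lay on MYBL1-204, a protein-coding transcript whose 2497 single-transcript bases are all in its 3′ UTR. MYBL1-204 alone had 571 and 285 counts with methylparaben and 1124 and 1283 with ethanol, a log2 fold change of -1.79 ± 0.17 (edgeR adjusted p = 9.52e-05 over 9167 transcripts). MYBL1-203, a noncoding processed transcript, had 10 and 3 counts with methylparaben and 18 and 16 with ethanol and was also lower, at -1.69 ± 0.59 (edgeR adjusted p = 0.0424). The retained-intron transcript MYBL1-205 had 7 and 5 counts with methylparaben and 9 and 13 with ethanol, too few to be tested. The other 2 protein-coding transcripts of MYBL1 have no base of their own, so the coding region of the gene was not read.

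SIAH2 encodes a RING-type ubiquitin ligase that marks proteins for degradation by the proteasome, among them the corepressor NCOR1 and regulators of the hypoxia response. It lies on chromosome 3 (150741127 to 150763477, minus strand). SIAH2 had 183 and 192 CPM in the methylparaben libraries, against 96.5 and 101 CPM in the ethanol libraries. The methylparaben libraries were both higher, and the groups did not overlap. The mean was 188 ± 6.14 CPM with methylparaben and 98.9 ± 3.35 CPM with ethanol (SD, n = 2 each), and the log2 fold change was 0.92 ± 0.18 (edgeR adjusted p = 0.00379).

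Every SIAH2 read lay on the protein-coding transcript SIAH2-201, which was at 0.90 ± 0.18 as a transcript (edgeR adjusted p = 0.00420). Its 1931 single-transcript bases comprise 623 coding bases, 291 of the 5′ UTR and 1017 of the 3′ UTR. SIAH2 was thus the called gene with the most coding bases on which reads could be counted. The counts do not show on which of its bases the reads fell. A stretch of 300 coding bases that belongs to this transcript alone is shown, as an example of the sequence on which reads could be counted (chr3:150742188-150742487, minus strand, GRCh38, from GENCODE release 29):

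SIAH2-201 coding stretch: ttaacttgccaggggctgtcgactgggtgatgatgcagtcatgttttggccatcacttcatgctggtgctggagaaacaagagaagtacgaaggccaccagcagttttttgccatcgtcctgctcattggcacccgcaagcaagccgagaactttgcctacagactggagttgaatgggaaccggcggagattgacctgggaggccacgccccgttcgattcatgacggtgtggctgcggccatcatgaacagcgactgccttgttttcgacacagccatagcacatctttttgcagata

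An antisense gene, SIAH2-AS1, overlaps SIAH2 on the opposite strand. Bases annotated to both were not counted, and reads from unannotated antisense RNA cannot be told apart from SIAH2 reads.

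**Figure D2:**
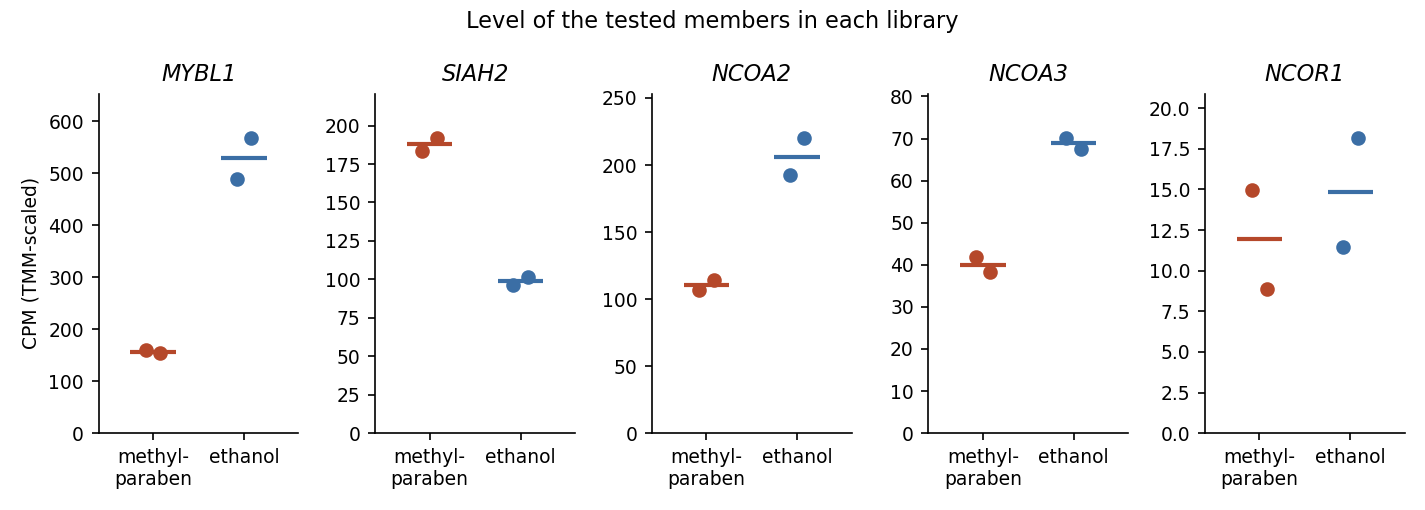
Level of each tested gene in CPM (vertical axis, from 0) in the methylparaben and ethanol libraries, with each point a library and each bar the group mean. The groups are apart for MYBL1, SIAH2, NCOA2 and NCOA3, with SIAH2 higher and the other three lower with methylparaben, and overlap for NCOR1.

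TFF1 encodes a small secreted trefoil peptide and is the most widely used estrogen-induced gene. No read was counted for it in any library, and the 3-count limit allows up to 0.816 and 1.57 CPM with methylparaben and up to 1.28 and 1.30 CPM with ethanol. Such limits and the intervals below cover counting error only. TFF1 has 1 annotated transcript of 551 bases, all of which belong to it alone, so its whole length could be read.

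GREB1, an estrogen-induced gene whose protein binds the receptor, also had no read in any library. Its 10 transcripts on chromosome 2 (11482341 to 11642788) overlap widely. The longest, GREB1-204 of 8484 bases, has 139 bases of its own, although 3889 of 12361 exonic bases of the gene belong to a single transcript. NRIP1, an estrogen-induced corepressor that binds agonist-bound receptors, had no read either. On chromosome 21 (14961235 to 15065936) it has 581 single-transcript bases out of 8497, and its longest transcript, NRIP1-203 of 7671 bases, has 66. Their limits of 3 counts are those of TFF1 in CPM, over far smaller shares of the mRNA, so an NRIP1 or GREB1 mRNA of full length was hardly measurable here.

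A count of 0 could also stand beside a gene with many readable bases in these libraries. GAPDH, an abundant glycolytic enzyme gene, had 0 and 1 counts with methylparaben and 0 and 1 with ethanol over 1376 single-transcript bases. IGFBP4, an estrogen-responsive gene with 2200 such bases, had no read. Among 11458 protein-coding transcripts with at least 500 single-transcript bases, 35.5% had no read in any library. That share was 18.9% below 40% GC and 64.3% above 60% GC. TFF1-201 is at 56.1% GC, in a range where 49.1% of such transcripts had no read. GREB1-204, at 53.6% GC, has 139 single-transcript bases and is not among them, nor is any NRIP1 transcript. The shorter protein-coding GREB1-202 and GREB1-203, with 1128 and 751 single-transcript bases, are among them and had no read. They are at 54.1% and 49.7% GC, in ranges where 41.7% and 32.8% of such transcripts had no read. A level of 0 for these 3 genes is therefore a count of reads and not a measure of absence.

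NCOA2 encodes a steroid receptor coactivator that binds agonist-bound receptors and recruits histone acetyltransferases. It lies on chromosome 8 (70109762 to 70403805, minus strand). NCOA2 had 107 and 114 CPM in the methylparaben libraries, against 192 and 220.3 CPM in the ethanol libraries. Both methylparaben libraries were lower, and the groups did not overlap. The mean was 110.5 ± 5.06 CPM with methylparaben and 206 ± 19.9 CPM with ethanol (SD, n = 2 each), a log2 fold change of -0.90 ± 0.18 (edgeR adjusted p = 0.00443). Of its reads 99.5% lay on the protein-coding transcript NCOA2-201, which has 207 coding, 106 5′ UTR and 2308 3′ UTR bases of its own, and which was at -0.92 ± 0.19 as a transcript (edgeR adjusted p = 0.00400).

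NCOA3, the coactivator of the same family known as amplified in breast cancer, lies on chromosome 20 (47501902 to 47656877, plus strand). It had 41.9 and 38.2 CPM in the methylparaben libraries, against 70.2 and 67.5 CPM in the ethanol libraries. The methylparaben libraries were again both lower without overlap. The mean was 40.1 ± 2.61 CPM with methylparaben and 68.8 ± 1.87 CPM with ethanol (SD, n = 2 each), a log2 fold change of -0.78 ± 0.24 (edgeR adjusted p = 0.0274). This call was the least firm of the 4, since the edgeR adjusted p became 0.117 without ethanol replicate 1, 0.0972 without ethanol replicate 2 and 0.0686 without methylparaben replicate 2. The call was also lost with DESeq2 (adjusted p = 0.0578), without a filter on low counts (0.0530) and on the deposited FPKM values summed per gene, where limma gave a log2 fold change of -0.10.

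The NCOA3 transcripts did not all go the same way. NCOA3-203, the protein-coding transcript with 1064 single-transcript bases, 1039 of them in the 3′ UTR, had 144 and 65 counts with methylparaben and 163 and 156 with ethanol. It was lower, at -0.92 ± 0.25 (edgeR adjusted p = 0.0145). NCOA3-205, a noncoding processed transcript, had 10 and 8 counts with methylparaben and 2 and 0 with ethanol, a ratio of 7.51 (exact 95% interval 1.798 to 66.7). NCOA3-205 was too sparse for the edgeR test, and its adjusted p in the authors' deposited table is 0.0913. NCOA3-203 held 92.1% of the NCOA3 reads with methylparaben and 99.4% with ethanol.

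NCOA1, the third coactivator of the family, had 7 and 1 counts with methylparaben and 0 and 0 with ethanol. All 8 reads lay on NCOA1-208, a retained-intron transcript. The level was 1.90 and 0.523 CPM with methylparaben, and the limit of 3 counts per library allows up to 1.28 and 1.30 CPM with ethanol, so no fold is given. None of the 6 protein-coding transcripts of NCOA1 on chromosome 2 (24491914 to 24770702) has a base of its own, so its mRNA was not measured. The authors' deposited table gives an adjusted p of 0.160 for NCOA1-208.

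NCOR1 is the corepressor that anchors the histone deacetylase HDAC3 to nuclear receptors. It lies on chromosome 17 (16029157 to 16218185, minus strand). NCOR1 had 14.96 and 8.90 CPM in the methylparaben libraries, against 11.5 and 18.2 CPM in the ethanol libraries. The groups overlapped, with an ethanol library between the methylparaben libraries. The mean was 11.9 ± 4.29 CPM with methylparaben and 14.8 ± 4.73 CPM with ethanol (SD, n = 2 each), and the log2 fold change of -0.28 ± 0.43 did not pass the test (edgeR adjusted p = 0.652). Without ethanol replicate 2 or methylparaben replicate 2 the value was 0.09 or 0.05, on FPKM plus 1 it was 0.92, and without retained-intron transcripts it was -1.08, none of which passed. At 72 counts with methylparaben and 69 with ethanol, a change of this size was not detectable at this depth.

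The reads of NCOR1 were spread over transcript classes that differed in share between the groups. The protein-coding NCOR1-201, read on 939 bases of its 3′ UTR, had 28 and 4 counts with methylparaben and 23 and 35 with ethanol, a log2 fold change of -1.27 ± 0.59 that did not pass the test (edgeR adjusted p = 0.112). The retained-intron transcript NCOR1-215 had 16 and 2 counts with methylparaben and 0 and 0 with ethanol. That is 4.35 and 1.05 CPM with methylparaben, of which methylparaben replicate 2 lies under the 1.28 and 1.30 CPM that 3 counts per library allow with ethanol, so the difference rests on methylparaben replicate 1. For NCOR1-215 the authors' deposited table gives an adjusted p of 0.00154. A second retained-intron transcript, NCOR1-224, had 3 and 5 counts with methylparaben and 2 and 1 with ethanol, a ratio of 2.23 (exact 95% interval 0.534 to 13.0). NCOR1-201 held 44.4% of the NCOR1 reads with methylparaben and 84.1% with ethanol. The gene has 27 annotated transcripts, 31.3% of its exonic bases belong to a single transcript, and its 3 annotated pseudogene copies had no read.

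**Figure D3:**
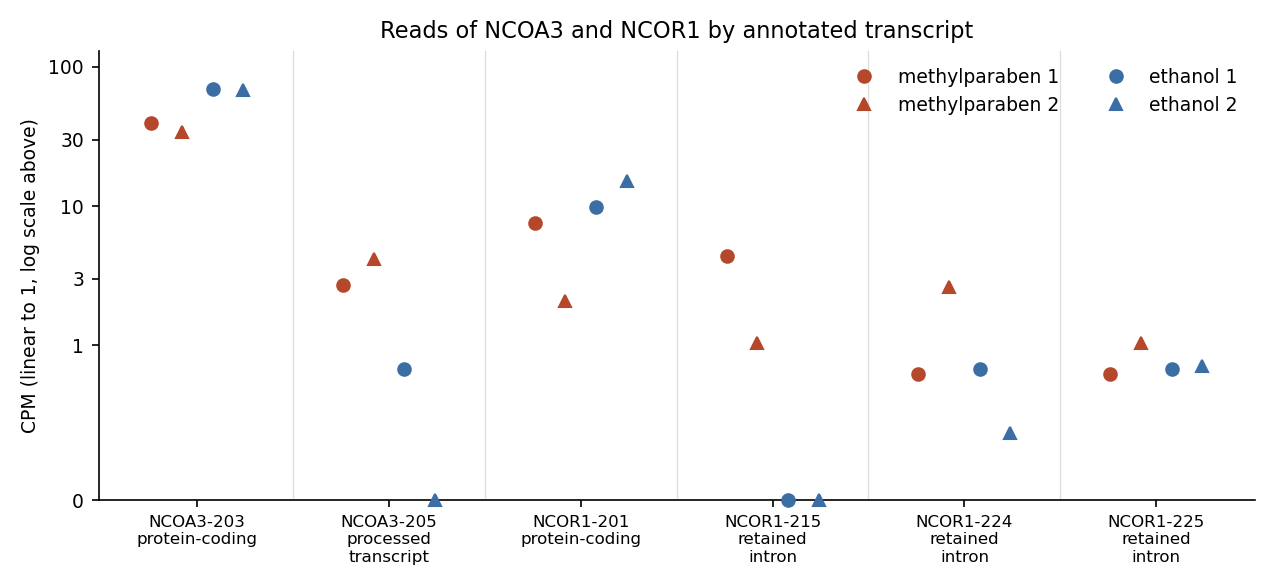
Level in CPM (vertical axis, linear to 1 and logarithmic above) of NCOA3 and NCOR1 transcripts in the methylparaben and ethanol libraries, each point a library. Only transcripts with at least 9 counts over all libraries are drawn. NCOA3-203 lies lower and NCOA3-205 higher with methylparaben, and NCOR1-215 is at 0 in both ethanol libraries.

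Of the 78 annotated transcripts of the 9 genes 19 had reads, and all 25 without a base of their own had none. edgeR could test 6 transcripts, of which 5 were called, SIAH2-201 higher and MYBL1-204, MYBL1-203, NCOA2-201 and NCOA3-203 lower. Across all 9167 transcripts tested, 39.4% were called. Without ethanol replicate 1 or 2, the number called among these genes was 2. In the authors' deposited table the adjusted p is listed as 0 for MYBL1-204 and is 0.000276 for SIAH2-201, 2.70e-05 for NCOA2-201 and 0.0222 for NCOA3-203. For MYBL1-203 it is 0.231, on the other side of the threshold from the edgeR call.

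Levels of different genes were compared as CPM per kilobase of single-transcript bases on the main protein-coding transcript. With methylparaben the order was SIAH2-201 at 97.2 ± 3.18, MYBL1-204 at 61.0 ± 1.76, NCOA2-201 at 42.1 ± 2.08, NCOA3-203 at 34.4 ± 3.43 and NCOR1-201 at 5.17 ± 4.16. With ethanol it was MYBL1-204 at 207 ± 21.9, NCOA2-201 at 78.2 ± 7.34, NCOA3-203 at 64.3 ± 1.20, SIAH2-201 at 51.2 ± 1.74 and NCOR1-201 at 13.3 ± 4.04 (SD, n = 2 each). No neighbours in either order overlapped in their libraries. SIAH2-201 was thus the most abundant of the 5 transcripts by this measure with methylparaben and the fourth with ethanol, and GC content, which goes with read number in these libraries, differs between them.

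Fold changes over all transcripts also moved with GC content. Tested protein-coding transcripts with at least 500 single-transcript bases had a median log2 fold change of -0.38 below 40% GC and of -0.34 between 40% and 45%. The median was 0.19 between 50% and 55% and 0.07 between 55% and 60%. MYBL1-204 is at 37.4% GC, NCOA3-203 at 42.6%, NCOA2-201 at 43.4% and NCOR1-201 at 45.2%, whereas SIAH2-201 is at 56.5%. The lower transcripts thus came from the GC range whose median was below 0. With each library adjusted for GC content, edgeR gave -1.67 ± 0.14 for MYBL1 (adjusted p = 6.14e-05), -0.80 ± 0.16 for NCOA2 (adjusted p = 0.00428) and -0.66 ± 0.21 for NCOA3 (adjusted p = 0.0323). SIAH2 moved most, to 0.59 ± 0.19 (edgeR adjusted p = 0.0364), and NCOR1 was at -0.23 ± 0.42 (edgeR adjusted p = 0.688). This adjustment was chosen after seeing the data, and all 4 calls held under it.

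**Figure D4:**
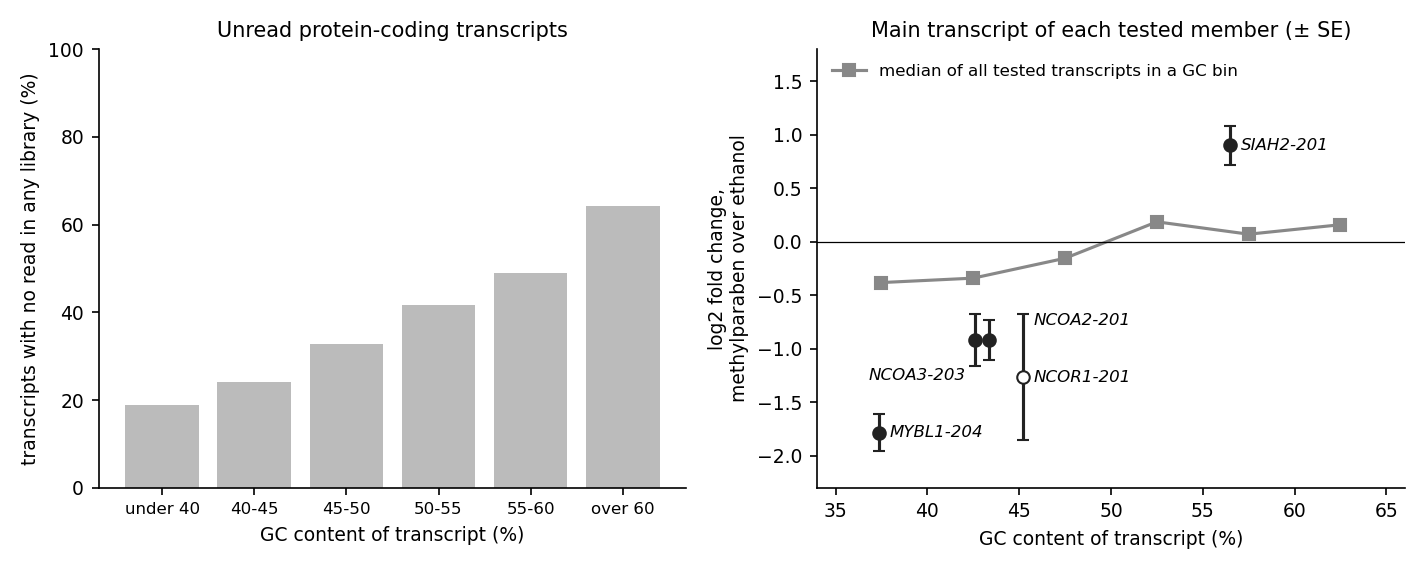
Left, share of protein-coding transcripts with no read in any library by GC content in percent, increasing from 18.9% below 40% GC to 64.3% above 60% GC. Right, log2 fold change of methylparaben over ethanol with SE for the main transcript of each tested gene against GC content (filled, called; open, not called), with the median of all tested transcripts in each GC range as grey squares. The 3 called lower transcripts have under 45% GC and SIAH2-201 has 56.5%.

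Promoter sequence from RefSeq (GRCh38.p14), taken as 250 bases before an annotated start, was at hand for SIAH2, NRIP1, NCOA1, NCOA3 and NCOR1, with 10 windows in all. These were searched on both strands for the estrogen response element GGTCANNNTGACC, its half-site GGTCA, the AP-1 motif TGANTCA and the SP1 motif GGGCGG. Of 35116 such windows over all genes, 0.0399% hold the full element, 32.6% the half-site, 6.57% the AP-1 motif and 42.6% the SP1 motif. No window of these 5 genes holds the full element or the AP-1 motif. The half-site occurs in a single window, upstream of an NRIP1 start, and overlaps none of the SP1 matches there. That window is shown beside the NCOA3 window, which holds none of the 4 motifs. Capitals mark the half-site, read on the opposite strand as TGACC, and the SP1 matches, which are CCGCCC on the opposite strand and run into each other at GGGCGGGCGG. The NRIP1 window is chr21:15065001-15065250 (minus strand) and the NCOA3 window chr20:47501637-47501886 (plus strand):

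NRIP1 window: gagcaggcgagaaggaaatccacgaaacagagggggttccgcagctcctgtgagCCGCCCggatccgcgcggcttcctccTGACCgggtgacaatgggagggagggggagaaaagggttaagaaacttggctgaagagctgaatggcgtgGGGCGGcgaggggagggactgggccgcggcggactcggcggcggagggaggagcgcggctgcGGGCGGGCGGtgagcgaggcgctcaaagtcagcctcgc
NCOA3 window: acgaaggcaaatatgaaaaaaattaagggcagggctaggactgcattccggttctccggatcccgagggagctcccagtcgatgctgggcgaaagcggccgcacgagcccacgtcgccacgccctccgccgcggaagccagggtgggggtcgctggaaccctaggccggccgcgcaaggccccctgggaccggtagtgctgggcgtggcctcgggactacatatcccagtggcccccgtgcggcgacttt

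The SIAH2 window holds 2 SP1 matches, and neither NCOR1 window holds any of the motifs. A match is a run of letters and not a bound site, and windows without a match are only short of these letters.

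The receptors themselves were scarcely read. ESR1, the gene of estrogen receptor alpha, had 1 and 0 counts with methylparaben and 21 and 16 with ethanol, all on the protein-coding ESR1-206, a ratio of 0.0226 (exact 95% interval 0.000556 to 0.134). The edgeR adjusted p for ESR1 was 0.00233, and 0.0654 without ethanol replicate 1. ESR2 had 1 and 0 counts with methylparaben and 0 and 0 with ethanol, and GPER1, ESRRA, ESRRB and ESRRG had none in any library. GPER1 has only 178 single-transcript bases of 3149 exonic bases, ESRRA 807 of 3030, ESRRB 1854 of 5930 and ESRRG 4170 of 10912. As with TFF1, a count of 0 here is not a measure of absence.

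A further 40 estrogen-responsive genes were examined beside the 9, of which 9 could be tested and 18 had no read. By edgeR 2 were higher and 3 lower with methylparaben, 55.6% of those tested against 36.9% of all genes, and their median log2 fold change was 0.61. CCND1, which encodes cyclin D1, had 123 and 120 CPM with methylparaben, against 703 and 673 CPM with ethanol, without overlap, and was at -2.50 ± 0.17 (edgeR adjusted p = 2.8e-05). BCL2, an inhibitor of apoptosis, had 16.6 and 10.5 CPM with methylparaben and 37.0 and 45.01 CPM with ethanol (log2 fold change -1.56 ± 0.33). FOS, a subunit of AP-1, had 61.8 and 44.0 CPM with methylparaben and 104 and 124 CPM with ethanol (log2 fold change -1.10 ± 0.24). All 3 of these genes were thus lower in both methylparaben libraries than in either ethanol library.

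Both genes that were higher went with limits. CCNG2, a cyclin gene, had 398 and 306 CPM with methylparaben and 204 and 235 CPM with ethanol, at 0.69 ± 0.19 (edgeR adjusted p = 0.0176). That call was lost without ethanol replicate 1 (0.166) or methylparaben replicate 1 (0.0767). VEGFA, an angiogenic factor gene, had 7.89 and 15.7 CPM with methylparaben and 2.13 and 2.16 CPM with ethanol, at 2.39 ± 0.61 (edgeR adjusted p = 0.0130), and retained-intron transcripts held 100% of the VEGFA reads. Its adjusted p was 0.0665 without ethanol replicate 1 and 0.116 without methylparaben replicate 2. XBP1, IRS1, FKBP4 and STC2 did not pass the test, at 0.71, 0.62, 0.61 and -0.12. XBP1, IRS1 and FKBP4 were each higher in both methylparaben libraries than in either ethanol library, whereas the groups overlapped for STC2. Retained-intron transcripts held 98.8% of the XBP1 reads, whereas protein-coding transcripts held 97.8% of the IRS1 and 99.2% of the FKBP4 reads. Whether estrogen raises or lowers each listed gene was not part of the comparison.

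Of 41 other coregulators, 24 could be tested and 3 had no read. By edgeR 3 were higher and 6 lower, 37.5% of those tested against 36.9% of all genes, with a median log2 fold change of 0.08. The share called was close to that of all genes.

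The scaffold attachment factors SAFB and SAFB2, paralogous corepressors of estrogen receptor alpha, were both higher with methylparaben. SAFB had 46.8 and 48.7 CPM with methylparaben and 6.38 and 8.22 CPM with ethanol, at 2.70 ± 0.33 (edgeR adjusted p = 0.000374), and retained-intron transcripts held 100% of the SAFB reads. SAFB2 had 35.4 and 29.3 CPM with methylparaben and 6.80 and 4.33 CPM with ethanol, at 2.53 ± 0.39 (edgeR adjusted p = 0.00119), with 45.8% of its reads on protein-coding and 32.5% on retained-intron transcripts. Reads of these paralogues may be shared between them. UBE3A, a ubiquitin ligase that also acts as a coactivator, was at 1.31 ± 0.28, with 95.1% of its reads on a retained-intron transcript.

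KAT2B, a histone acetyltransferase that works with the coactivators, had 34.6 and 43.4 CPM with methylparaben and 207 and 225 CPM with ethanol. It was lower without overlap, at -2.48 ± 0.21 (edgeR adjusted p = 7.5e-05), with 98.4% of its reads on a protein-coding transcript. The RNA helicase gene DDX17 was at -0.90 ± 0.16, the corepressor scaffold gene SIN3A at -1.94 ± 0.41, TRIM24 at -1.95 ± 0.53, NCOA5 at -1.25 ± 0.40 and the histone methyltransferase gene NSD1 at -2.89 ± 0.73. NSD1 had 3 and 1 counts with methylparaben and 12 and 14 with ethanol, and its call was lost without any single library (adjusted p between 0.0858 and 0.240 by edgeR). The TRIM24 call was lost without ethanol replicate 2 (0.192), and that of NCOA5 without ethanol replicate 1 (0.202) or methylparaben replicate 1 (0.113). With retained-intron transcripts left out, 5 of 16 tested coregulators were called, SAFB2 higher and KAT2B, SIN3A, DDX17 and TRIM24 lower.

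Coregulators that did not pass the test included the acetyltransferase genes EP300 at 0.45 ± 0.23 and CREBBP at -0.11 ± 0.27, the mediator subunit gene MED1 at 0.09 ± 0.18, and HDAC3, the deacetylase of the NCOR1 complex, at 1.59 ± 0.61 (edgeR adjusted p = 0.0643). Retained-intron transcripts held 100% of the HDAC3 reads. EP300, CREBBP, MED1 and HDAC3 were named after their values were seen.

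**Figure D5:**
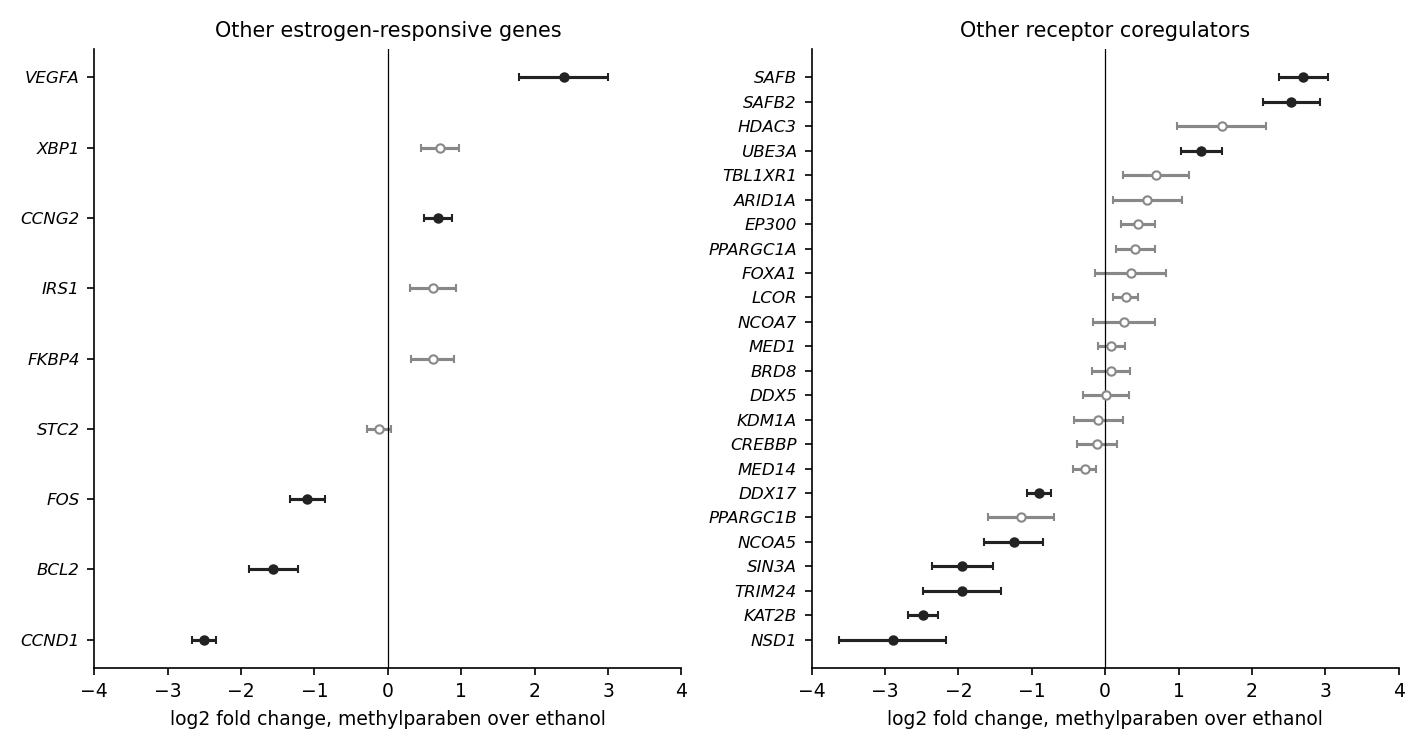
Log2 fold change of methylparaben over ethanol with SE (horizontal axis) for the 9 tested other estrogen-responsive genes (left) and the 24 tested other coregulators (right). Filled points had an adjusted p under 0.05 by edgeR. On the left 2 called genes lie above 0 and 3 below, and on the right 3 lie above 0 and 6 below.

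The gene with the profile nearest to each called gene was found among the tested genes outside all lists used here, markers included. It had the smallest Euclidean distance between centred log2 CPM over the 4 libraries. It was TRIM2 for MYBL1 (log2 fold change -1.90), LRRC59 for SIAH2 (0.91), KPNA1 for NCOA2 (-0.89) and RPL22 for NCOA3 (-0.75), at distances of 0.0376, 0.0708, 0.0308 and 0.0370. With 4 libraries such likeness amounts to a similar difference between the groups and a similar small spread within them.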

How the data were processed

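Unnormalised read counts per transcript and FPKM values of the same libraries were deposited by the authors. Per the file headers, further deposited columns hold log2 of FPKM plus 1 and a p-value and adjusted p-value per transcript, whose test is not named. The submitters' processing notes list GRCh38, DESeq2, limma and edgeR. The sources used here name neither aligner nor counting program. All 206601 transcripts matched GENCODE release 29 by coordinates, and 70749 of them had no single-transcript base and no read.

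Counts were summed per gene, filtered with filterByExpr (minimum count 10, minimum total 15), scaled by TMM and tested two-sided in R 4.3.3 with edgeR 4.0.16 (quasi-likelihood F-test), p-values being adjusted by Benjamini-Hochberg over 8055 genes at 0.05. The SE is the log2 fold change over the square root of F. Transcripts were fitted the same way. In a test on simulated data for this comparison, 200 of 8055 genes were changed by 1 or 2 on the log2 scale. Of those changed by 1, 20% were called, and of those changed by 2, 82%. Far fewer genes were changed there than the 2976 called in the data. The cutoff after adjustment was therefore stricter in the simulation, and these shares do not carry over to the data. The limit for 0 counts is 3 counts per library, and ratios with 1 to 3 counts in a group have exact binomial 95% intervals.

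The 9 genes and all gene lists were chosen with earlier results of these data known. Named besides them were their transcripts with at least 10 counts, up to 6 called genes in each direction of each list by smallest p, estrogen receptors, and the nearest profiles. Other genes and transcripts named were chosen after their values were seen. Alternatives were RLE, upper quartile and library-size scaling, DESeq2 1.42.0, limma 3.58.1 (voom, and log2 FPKM with pseudocounts of 1 and 0.1), no filter or 5 CPM in 2 libraries, a replicate block, leaving out each library or transcript class, and, added after seeing the data, a crossed block and a GC adjustment. Replicate libraries differed by more than sampling noise. Some items are not reported here.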

Additional observations from a re-analysis of the deposited data

How the results depend on the processing

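The calls of MYBL1, SIAH2 and NCOA2 held under all 17 alternatives, with log2 fold changes from -1.88 to -1.63, from 0.59 to 1.06 and from -1.02 to -0.76. The NCOA3 call held in 9 of 17 and was lost under DESeq2 (adjusted p = 0.0578), without a filter (0.0530), and on FPKM with pseudocounts of 1 (0.815, log2 fold change -0.10) and 0.1 (0.805, -0.11), where summing FPKM gives a read on a short transcript such as NCOA3-205 more weight. NCOR1, never called, turned to 0.92 and 1.06 on FPKM with pseudocounts of 1 and 0.1, and ran from -0.74 without methylparaben replicate 1 to 0.093 without ethanol replicate 2, being at 0.05 without methylparaben replicate 2. Of the 9 genes 3 or 4 were called under every alternative. All genes called numbered 2976, against 1899 on FPKM plus 0.1, 1867 with protein-coding transcripts only, where fewer genes were tested, and 1677 to 3095 with a library left out, the lowest without ethanol replicate 1. Among the other estrogen-responsive genes 5 were called, against 3 on FPKM with either pseudocount and 5 to 7 with a library left out. Among the other coregulators 9 were called, against 5 without retained-intron transcripts, where 16 were tested, and 7 to 8 with a library left out. Member transcripts called numbered 5, against 2 to 5 with a library left out, with 2 without either ethanol library. Where no cause is given, it was not tested.

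No pairing by replicate number was seen. The deviations of same-numbered libraries from their group means correlated at -0.15 over 8055 genes, which does not exclude a pairing. With the replicate number as a block 2488 genes and 3 of the 9 genes were called, NCOA3 being at an adjusted p of 0.0584. Under the crossed pairing 3292 genes and 4 of the 9 were called. Library-size scaling moved the median of all genes to -0.08, against 0.03 with TMM. Too few counted reads kept 4 of the 9 genes out of the test.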
